A study of Mus musculus with 21 samples.

Results

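The interferon regulatory factors (IRFs) are a family of DNA-binding proteins that switch interferon and inflammatory genes on or off. Their mRNAs were followed here in microglia, the resident macrophages of the brain, taken from the striatum of adult male mice. The members were chosen by gene symbol: Irf1, Irf2, Irf3, Irf4, Irf5, Irf7, Irf8 and Irf9, which are 8 of the 55487 genes in the deposited table, and 8 of 8 passed the filter on low counts. Live cells of mice aged 8 to 10 weeks were sorted for CD11b, low CD45 and P2RY12, a surface receptor of microglia, and their RNA was sequenced in bulk. MIA mice were the offspring of dams with maternal immune activation, an immune challenge during pregnancy, and control mice were the offspring of control dams; the agent given to the dams is not stated in the labels. Each mouse received lipopolysaccharide (LPS), a component of bacterial cell walls, at 4500 endotoxin units per gram of body weight into the peritoneum, or saline, and microglia were collected 18 hours later. The comparisons rested on 3 MIA LPS, 5 MIA saline, 5 control LPS and 6 control saline libraries. A further MIA LPS library was the only one of batch 2, and a sixth MIA saline library was titled excluded by the submitters; neither entered a group mean.

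IRFs act in layers. IRF3 and IRF7 wait in the cytosol until a kinase phosphorylates them after a Toll-like receptor or a nucleic acid sensor is engaged, and then drive interferon genes. IRF9 is the DNA-binding part of the complex that answers type I interferon, and that complex in turn raises transcription of Irf7. IRF1 is an activator made after interferon gamma and inflammatory signals, IRF2 competes with it for the same sites, IRF5 works downstream of MyD88, and IRF4 and IRF8 bind DNA together with partners such as PU.1. IRF8 is also needed for the normal development of microglia.

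The 250 bases before the transcription start were read from RefSeq (GRCm38.p6) for the 8 members, which gave 11 windows because Irf1, Irf8 and Irf9 have 2 annotated starts each. They were searched on both strands for the interferon-stimulated response element (ISRE: GAAA, any 2 bases, GAAA), the gamma-activated site (GAS: TTC, any 3 bases, GAA), an IRF-ETS composite element (GGAA, any 2 bases, GAAA) and the NF-kB consensus. Among 32851 windows of the same length, these were found in 2.98%, 7.02%, 2.3% and 7.25%. The 3 windows with a match, those of Irf1, Irf2 and Irf8, are printed, because they show where a searched element lies before the start of a member that rose after LPS (Irf1) and of members that did not pass the test (Irf2 and Irf8). Capitals mark the matches.
Irf1, chr11:53769764-53770013, plus strand: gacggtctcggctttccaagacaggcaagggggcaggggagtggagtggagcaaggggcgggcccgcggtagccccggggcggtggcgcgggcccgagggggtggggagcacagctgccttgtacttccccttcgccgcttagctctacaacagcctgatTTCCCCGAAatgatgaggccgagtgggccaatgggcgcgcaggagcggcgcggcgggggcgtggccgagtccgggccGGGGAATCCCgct
Irf2, chr8:46739495-46739744, plus strand: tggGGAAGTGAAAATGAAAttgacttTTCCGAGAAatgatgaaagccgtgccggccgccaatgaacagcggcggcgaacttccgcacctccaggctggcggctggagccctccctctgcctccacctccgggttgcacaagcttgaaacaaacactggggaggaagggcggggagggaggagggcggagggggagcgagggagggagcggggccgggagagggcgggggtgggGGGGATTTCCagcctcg
Irf8, chr8:120736108-120736357, plus strand: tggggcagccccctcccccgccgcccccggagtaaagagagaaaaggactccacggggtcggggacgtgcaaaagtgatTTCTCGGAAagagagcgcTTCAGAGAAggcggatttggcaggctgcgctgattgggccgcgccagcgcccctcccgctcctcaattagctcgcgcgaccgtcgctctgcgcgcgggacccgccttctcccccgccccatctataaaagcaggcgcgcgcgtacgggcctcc
The Irf1 window, at the first of its starts, held a GAS 90 to 82 bases and an NF-kB match 13 to 4 bases before the start. That of Irf2 held all 4 elements, with the IRF-ETS composite at 247 to 238 bases overlapping the ISRE at 241 to 232 bases before the start. The Irf8 window, at the first of its starts, held a GAS at 171 to 163 and another at 153 to 145 bases before the start. No searched letters were found in the windows of Irf3, Irf4, Irf5, Irf7 and Irf9, which says only that these letters are not in these windows.

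Before the members, the libraries themselves. The 19 libraries held 9.85 to 19.0 M counts each (M, counts in units of 1e+06), of which ribosomal RNA genes took 46.2 to 55.9%. All 10 microglia markers examined had counts in every group, with a summed level of 4372 to 6867 counts per 1e+06 counts (CPM) in MIA LPS, 13650 to 16870 CPM in MIA saline, 5070 to 6396 CPM in control LPS and 12420 to 17010 CPM in control saline. Monocyte markers summed to 33.9 to 59.4 CPM in MIA LPS, 2.81 to 5.94 CPM in MIA saline, 36.8 to 79.6 CPM in control LPS and 3.8 to 6.41 CPM in control saline, and of 6 tested 5 were called higher and 1 lower after LPS in each maternal group. Neutrophil markers summed to 34.3 to 104.7 CPM in MIA LPS, at most 0.321 CPM in MIA saline, 45.6 to 110.6 CPM in control LPS and at most 19.6 CPM in control saline; 7 of 7 tested were called higher in MIA and 5 of 7 in control offspring. Markers at 0 counts were Ly6c2, Chil3 and F10 (monocyte) and S100a9, Ly6g, Retnlg, Camp, Ltf and Mmp8 (neutrophil) in MIA saline, and Retnlg and Mmp8 in control saline. Dendritic cell markers summed to 5.72 to 8.39 CPM in MIA LPS, 4.18 to 6.22 CPM in MIA saline, 5.63 to 8.72 CPM in control LPS and 3.54 to 4.61 CPM in control saline, with Clec9a and Cd209a at 0 after LPS and Ccr7 at 0 after saline. Lymphocyte markers reached at most 0.938 CPM in any library, and Cd3e and Nkg7 were among those at 0 in all 4 groups. Of the 2 dendritic cell markers tested, 1 was called higher with LPS in each maternal group. Most tested monocyte and neutrophil markers were called higher with LPS, in the comparisons in which 5 members changed, and the part of these 3 lists in the changes of the IRFs was not tested. Astrocyte markers summed to 128.4 to 218.2 CPM in MIA LPS and 165.0 to 252.6 CPM in MIA saline. In control offspring they summed to 104.7 to 147.2 CPM after LPS and 170.7 to 264.0 CPM after saline. Of 5 tested, Gfap was called higher and Slc1a3 lower with LPS in each maternal group. Oligodendrocyte lineage markers ran from 31.3 to 88.3 CPM over the 4 groups. The part of these 2 lists was not tested either.

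Per base of transcript, Irf8 had the highest level of the 8 members in microglia from saline mice. Levels in this paragraph are CPM per kilobase of the principal transcript, a scale that lets genes be compared. In MIA saline, Irf8 had 85.1 ± 11.2 and Irf1 42.4 ± 15.0 CPM per kilobase (SD, n = 5), and in control saline Irf8 had 75.1 ± 10.1 and Irf1 35.1 ± 6.75 CPM per kilobase (SD, n = 6). The order in both saline groups ran Irf8, Irf1, Irf5, Irf2, Irf9, Irf3, Irf4, Irf7. The ranges of Irf1 and Irf5 overlapped in both, with Irf1 above Irf5 in 5 of 5 MIA saline and 5 of 6 control saline libraries. In control saline, but not in MIA saline, the ranges of Irf9 and Irf3 and of Irf4 and Irf7 overlapped too, although Irf9 exceeded Irf3 in 5 of 6 libraries and Irf4 exceeded Irf7 in 6 of 6. LPS groups put Irf1 on top. It reached 106.8 ± 16.7 CPM per kilobase against 71.0 ± 9.66 for Irf8 in MIA LPS (SD, n = 3) with no overlap, and 89.1 ± 8.63 against 71.5 ± 12.9 in control LPS (SD, n = 5), where the ranges overlapped although Irf1 exceeded Irf8 in 5 of 5 libraries. Irf5 and Irf9 (22.4 and 22.3 CPM per kilobase in MIA LPS) and, in control LPS, Irf5, Irf2 and Irf9 (23.4, 21.8 and 20.7) overlapped. At the low end of the LPS groups Irf7 ranked above Irf3, with no overlap in MIA LPS and with overlap in control LPS, and Irf4 was last.

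As shares of the summed IRF level, Irf8 made up 27.2% in MIA LPS and 43.9% in MIA saline, and 28.8% in control LPS and 41.9% in control saline. Irf1 made up 40.8% in MIA LPS and 21.4% in MIA saline, and 36.2% in control LPS and 19.5% in control saline. Irf7 made up 4.93% in MIA LPS and 0.488% in MIA saline, against 4.21% in control LPS and 0.519% in control saline. The sum itself was 261.4 ± 23.5 CPM per kilobase in MIA LPS (SD, n = 3), 194.3 ± 26.5 in MIA saline (n = 5), 246.5 ± 27.3 in control LPS (n = 5) and 179.1 ± 18.7 in control saline (n = 6). These values depend on which transcript length divides the counts: with all annotated exons in place of the principal transcript, Irf5 ranked above Irf1 in both saline groups.

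**Figure D1:**
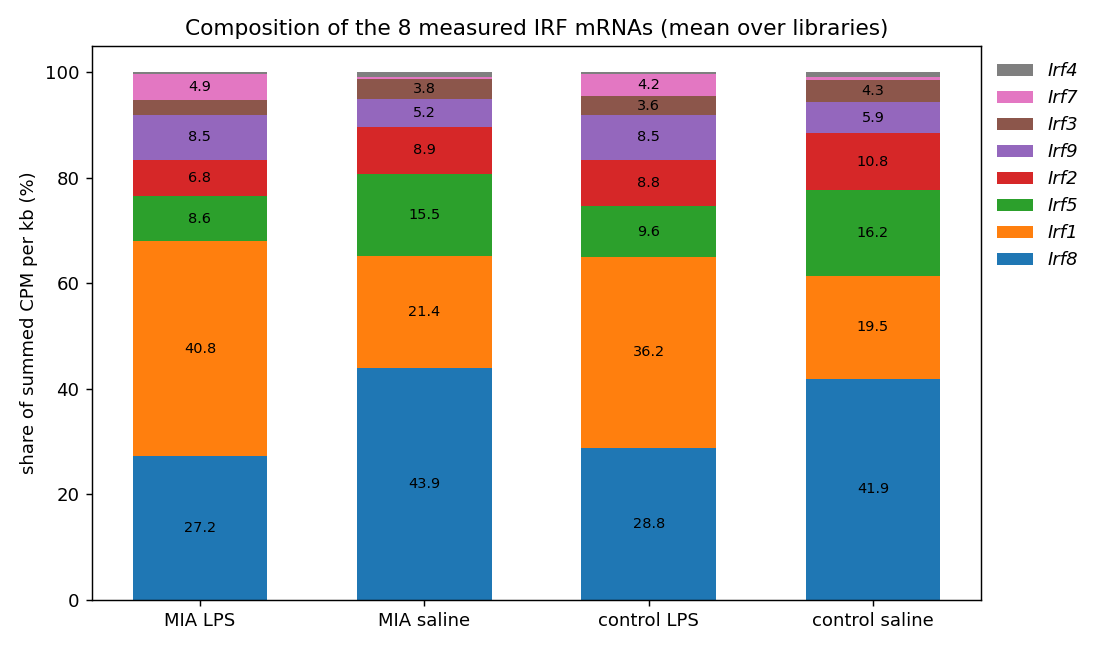
Share of each IRF in the summed CPM per kilobase of the 8 genes (y axis, %, mean over libraries) in the 4 groups (x axis). Irf8 holds 43.9% in MIA saline and 41.9% in control saline, and Irf1 holds 40.8% in MIA LPS and 36.2% in control LPS.

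LPS raised 3 members and lowered 2 in the offspring of both kinds of dam. Irf7, Irf1 and Irf9 rose, Irf4 and Irf5 fell, and Irf2, Irf3 and Irf8 did not pass the test. A call is an adjusted p under 0.05 in edgeR's quasi-likelihood test with Benjamini-Hochberg adjustment over all 14741 genes tested. By that rule 39.1% of all genes were called in MIA offspring (20.8% higher, 18.3% lower) and 44.6% in control offspring (23.3% higher, 21.3% lower), and the members' count of 5 of 8 is to be read against these shares. The median log2 fold change over all genes tested was 0.02 in MIA and -0.00324 in control offspring. In bulk libraries of sorted cells, fewer cells of a type and less RNA per cell cannot be told apart. The labels do not say whether libraries came from separate litters, and a p-value here measures only how these libraries spread, which may be technical. Several libraries shared an ID number, which the labels do not explain, and the test took all libraries as independent.

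**Figure D2:**
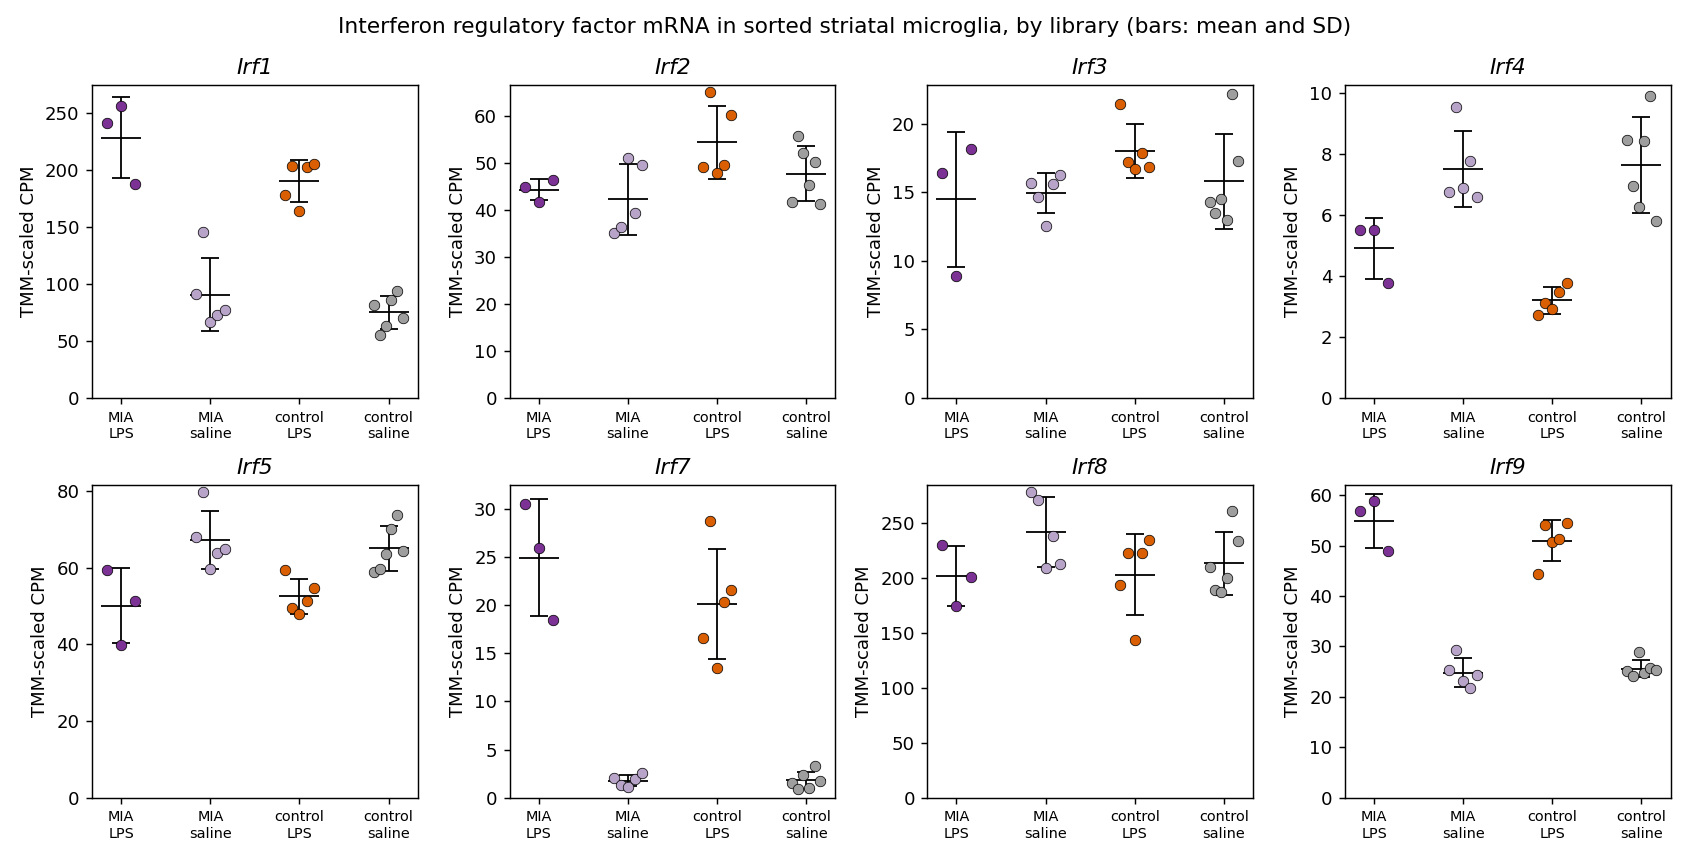
TMM-scaled CPM (y axes) of each IRF in the 19 libraries (points) of the 4 groups (x axes), with the group mean and SD as bars. Irf7, Irf1 and Irf9 are higher in all LPS libraries than in any saline library of the same maternal group, and Irf4 is lower.

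Irf7 changed most. The gene (chr7:141262706-141266481, minus strand, GRCm38) encodes the factor that amplifies type I interferon production and is itself stimulated by interferon. Its level was 30.4, 25.9 and 18.4 CPM in the 3 MIA LPS libraries, against 2.02, 1.28, 1.08, 1.93 and 2.6 CPM in MIA saline. In control LPS it was 16.6, 28.7, 13.5, 20.3 and 21.6 CPM, against a lowest of 0.936, a median of 1.64 and a highest of 3.32 CPM in control saline. The LPS and saline libraries lay far apart in both maternal groups, with no overlap. The fold change was 13.9 (95% interval 8.82 to 21.9; log2 3.79 ± 0.32 SE, adjusted p = 9.85e-10, edgeR) in MIA and 10.9 (7.41 to 16.1; log2 3.45 ± 0.27, adjusted p = 2.16e-10) in control offspring. Among the 14741 genes Irf7 ranked 259th from the highest log2 fold change in MIA and 282nd in control offspring. Saline libraries held 13 to 57 Irf7 counts in control and 16 to 39 in MIA offspring, so its saline level rests on few reads. Irf7 shares 45 exon bases with Phrf1 on the opposite strand, which was not called, with log2 fold changes of 0.30 in MIA and 0.19 in control offspring.

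Irf1, the interferon gamma and NF-kB responsive activator, was already abundant after saline and rose further. Its level was 240.7, 256.1 and 188.0 CPM in MIA LPS, against 91.2, 145.7, 66.4, 72.5 and 76.8 CPM in MIA saline. Control LPS libraries had 177.9, 203.1, 164.1, 202.1 and 205.0 CPM, against a lowest of 55.6, a median of 76.2 and a highest of 93.5 CPM in control saline. Every LPS library exceeded every saline library of its maternal group, and MIA saline replicate 2, at 145.7 CPM, stood above the other saline libraries. The log2 fold change was 1.33 ± 0.20 (SE, adjusted p = 6.16e-06) in MIA and 1.34 ± 0.17 (adjusted p = 3.6e-07) in control offspring by edgeR, folds of 2.52 and 2.54. The gene lies at chr11:53770014-53778374 (GRCm38) and shares 135 exon bases with Gm17334 on the opposite strand. That neighbour was called higher too, by a log2 fold change of 1.74 ± 0.21 (adjusted p = 2.88e-07) in MIA and 1.40 ± 0.18 (adjusted p = 4.9e-07) in control offspring. Whether counting used strand is not given in the sources used here, and reads of the shared bases cannot be assigned to either gene.

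Irf9 (chr14:55603571-55610030), the DNA-binding subunit of the interferon-response complex, rose as well. It had 56.9, 58.8 and 48.9 CPM in MIA LPS, against 25.4, 29.3, 23.1, 21.7 and 24.2 CPM in MIA saline. In control LPS it had 44.3, 54.1, 50.7, 51.2 and 54.5 CPM, against a lowest of 24.2, a median of 25.2 and a highest of 28.8 CPM in control saline. No LPS library came near a saline library. The fold was 2.22 (1.86 to 2.64; log2 1.15 ± 0.12 SE, adjusted p = 4.41e-08, edgeR) in MIA and 1.99 (1.71 to 2.31; log2 0.99 ± 0.10, adjusted p = 1.85e-08) in control offspring. Irf9 shares 123 exon bases with Rnf31 on the same strand, which also rose, by log2 0.55 ± 0.18 (adjusted p = 0.0149) in MIA and 0.44 ± 0.15 (adjusted p = 0.0169) in control offspring.

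Irf4 (chr13:30749226-30766976), a factor of lymphocytes and of alternatively activated macrophages, was the scarcest member after LPS and fell. It had 5.5, 5.5 and 3.76 CPM in MIA LPS, against 6.75, 9.56, 6.89, 7.78 and 6.6 CPM in MIA saline. Control LPS libraries had 2.71, 3.13, 2.91, 3.48 and 3.77 CPM, against a lowest of 5.81, a median of 7.7 and a highest of 9.91 CPM in control saline. The groups did not overlap in either maternal group, with a wider gap in control offspring. The log2 fold change was -0.61 ± 0.23 (SE, adjusted p = 0.0395) in MIA and -1.26 ± 0.20 (adjusted p = 9.26e-06) in control offspring by edgeR. The MIA call was lost without MIA LPS replicate 3 (log2 -0.45, adjusted p = 0.206), MIA saline replicate 2 (-0.51, 0.0977) or MIA saline replicate 4 (-0.60, 0.0637), and without the filter on low counts (-0.62, 0.109). It was also lost with the replicate number as a block (-0.55, adjusted p = 0.0767, edgeR) and with the ID number as a block (-0.58, 0.0716). Irf4 counts per library ran from 28 to 170 over all 4 groups.

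Irf5 (chr6:29526625-29541871), which carries signals of MyD88-dependent receptors to inflammatory cytokine genes, fell by less. It had 59.3, 39.7 and 51.4 CPM in MIA LPS, against 68.0, 79.6, 59.7, 63.9 and 65.0 CPM in MIA saline. In control LPS it had 59.3, 49.5, 48.0, 51.2 and 54.7 CPM, against a lowest of 58.8, a median of 64.0 and a highest of 73.7 CPM in control saline. All 3 MIA LPS libraries lay below all MIA saline libraries, by a small margin, and 4 of 5 control LPS libraries lay below all control saline libraries. The log2 fold change was -0.42 ± 0.14 (SE, adjusted p = 0.016) in MIA and -0.31 ± 0.11 (adjusted p = 0.0295) in control offspring by edgeR. In MIA the call was lost without MIA LPS replicate 2 (log2 -0.28, adjusted p = 0.118) and with limma-voom (-0.32, 0.0606). Of the 3 MIA LPS libraries, replicate 2 had the highest summed markers of astrocytes (218.2 CPM), the oligodendrocyte lineage (88.3 CPM), neurons (10.5 CPM) and endothelial and mural cells (15.3 CPM), and the lowest of microglia (4372 CPM), monocytes (33.9 CPM) and border-associated macrophages (11.9 CPM); their part in this call was not tested. In control offspring it was lost without control LPS replicate 2 (-0.29, 0.0625) or 4 (-0.30, 0.0583), without control saline replicate 4 (-0.29, 0.0576) or 5 (-0.27, 0.0606), and without the filter on low counts (-0.31, 0.0695). Irf5 shares 411 exon bases with Tnpo3 on the opposite strand, which was not called, with log2 fold changes of -0.03 in MIA and 0.03 in control offspring.

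Irf8 (chr8:120736358-120756694), the lineage factor of microglia and the most abundant IRF after saline, had 230.1, 175.1 and 201.5 CPM in MIA LPS, against 278.6, 271.3, 209.6, 238.6 and 212.9 CPM in MIA saline. In control LPS it had 193.6, 222.8, 143.4, 222.8 and 234.7 CPM, against a lowest of 187.6, a median of 205.5 and a highest of 261.1 CPM in control saline. The groups overlapped in both maternal groups. Its log2 fold change was -0.26 (95% interval -0.59 to 0.07, adjusted p = 0.214, edgeR) in MIA and -0.07 (-0.35 to 0.20, adjusted p = 0.7) in control offspring. For comparison, 9 of 10 microglia markers were called lower in each maternal group, with a median log2 fold change of -1.84 in MIA and -1.73 in control offspring.

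Irf2 (chr8:46739732-46847458), the competitor of IRF1, and Irf3 (chr7:44997648-45002848), the constitutive partner of IRF7, did not pass the test either. Irf2 had 44.9, 41.7 and 46.2 CPM in MIA LPS, against 35.0, 36.2, 50.9, 39.4 and 49.6 CPM in MIA saline. In control LPS it had 49.1, 65.0, 47.9, 49.5 and 60.2 CPM, against a lowest of 41.3, a median of 47.6 and a highest of 55.7 CPM in control saline. The Irf2 groups overlapped, with log2 fold changes of 0.07 (95% interval -0.24 to 0.38) in MIA and 0.19 (-0.07 to 0.45) in control offspring. Irf3 had 16.4, 8.9 and 18.2 CPM in MIA LPS, against 15.7, 14.6, 12.6, 15.6 and 16.2 CPM in MIA saline. In control LPS it had 21.4, 17.2, 16.7, 17.8 and 16.8 CPM, against a lowest of 13.0, a median of 14.4 and a highest of 22.1 CPM in control saline. The Irf3 groups overlapped as well, MIA LPS replicate 2 being the lowest of all libraries, and the log2 fold changes were -0.05 (-0.46 to 0.37) in MIA and 0.19 (-0.15 to 0.53) in control offspring. Irf3 shares 88 exon bases with Bcl2l12 on the opposite strand, which was not called.

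**Figure D3:**
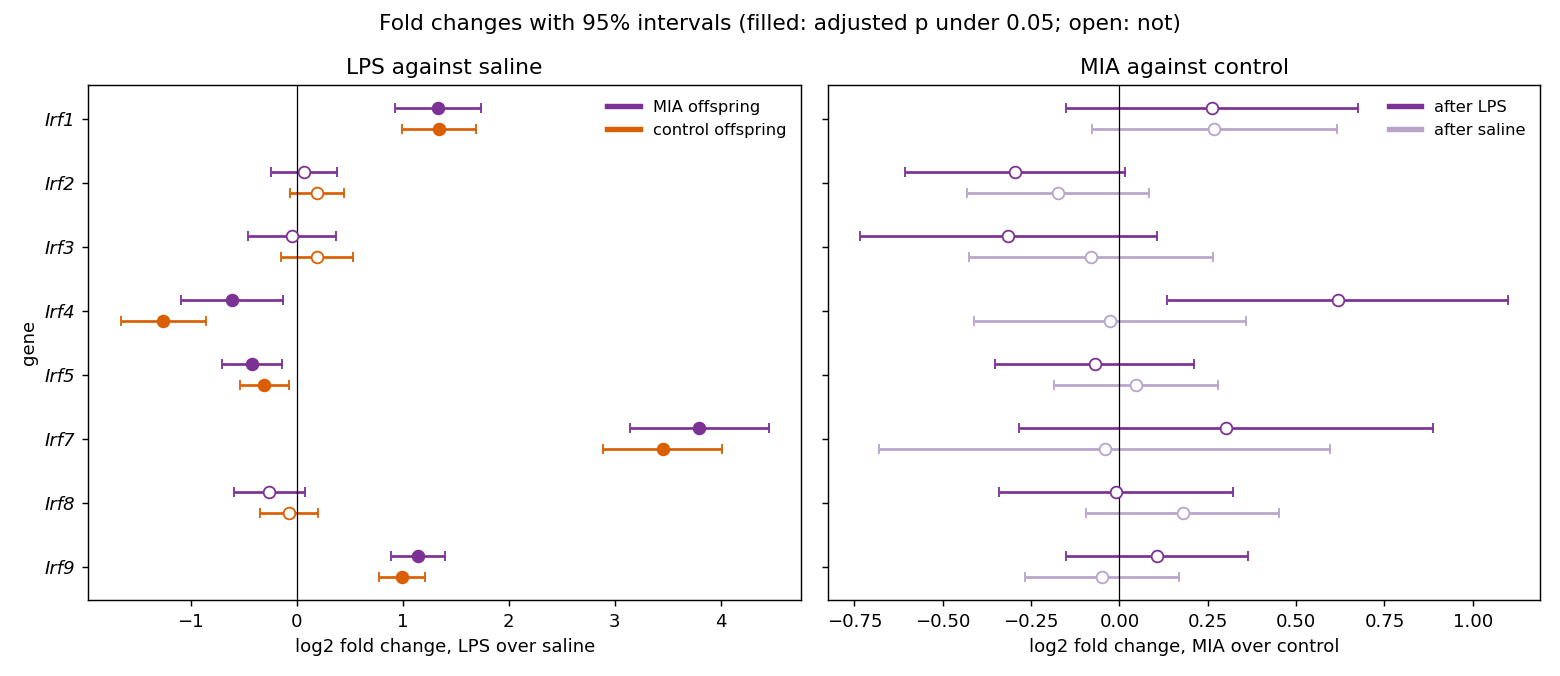
Log2 fold change of each IRF (y axis) with its 95% interval for LPS against saline (left panel, MIA offspring above control offspring) and for MIA against control (right panel, after LPS above after saline). Filled points have an adjusted p under 0.05: 5 members in the left panel in either maternal group and none in the right panel.

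Counted by overlap, Irf1, Irf7 and Irf9 lay above and Irf4 and Irf5 below without overlap in MIA offspring, where 36.5% of all genes tested had groups that did not overlap (18.5% above, 18.0% below). In control offspring Irf1, Irf7 and Irf9 lay above and Irf4 below, against 28.9% of all genes (15.1% above, 13.9% below). These shares depend on the numbers of libraries, which differ between the maternal groups.

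Count ratios within single libraries were taken for pairs of members with opposed or linked roles. Irf2, Irf3 and Irf8 were not called, so each ratio largely restates the change of the other member of its pair. The count ratio of Irf1 to Irf2, activator over competitor, had a median of 5.36 in MIA LPS (range 4.07 to 6.14) and 1.84 in MIA saline (1.3 to 4.02), and of 3.43 in control LPS (3.12 to 4.08) and 1.79 in control saline (0.998 to 1.97). No LPS library overlapped a saline library of its maternal group, by a small margin in MIA offspring (4.07 against 4.02). How many other gene pairs would be separated in this way was not counted. Irf7 to Irf3, inducible over constitutive partner, had a median ratio of 1.86 in MIA LPS (1.01 to 2.91) and 0.123 in MIA saline (0.086 to 0.16), and of 1.14 in control LPS (0.777 to 1.67) and 0.105 in control saline (0.0693 to 0.163). Here Irf7 counts passed those of Irf3 in 3 of 3 MIA LPS libraries, in replicate 3 only by 279 against 275. In control LPS, Irf7 counts were below those of Irf3 in replicates 1 (307 against 395) and 3 (130 against 161), and above them in the other libraries. Irf8 to Irf4, the related pair that binds with PU.1, had a median ratio of 41.9 in MIA LPS (31.9 to 53.5) and 30.7 in MIA saline (28.4 to 41.3), with overlap, and of 63.9 in control LPS (49.3 to 71.5) and 26.8 in control saline (23.8 to 40.2), without overlap. The ratios are descriptions of counts and are not corrected for transcript length.

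**Figure D4:**
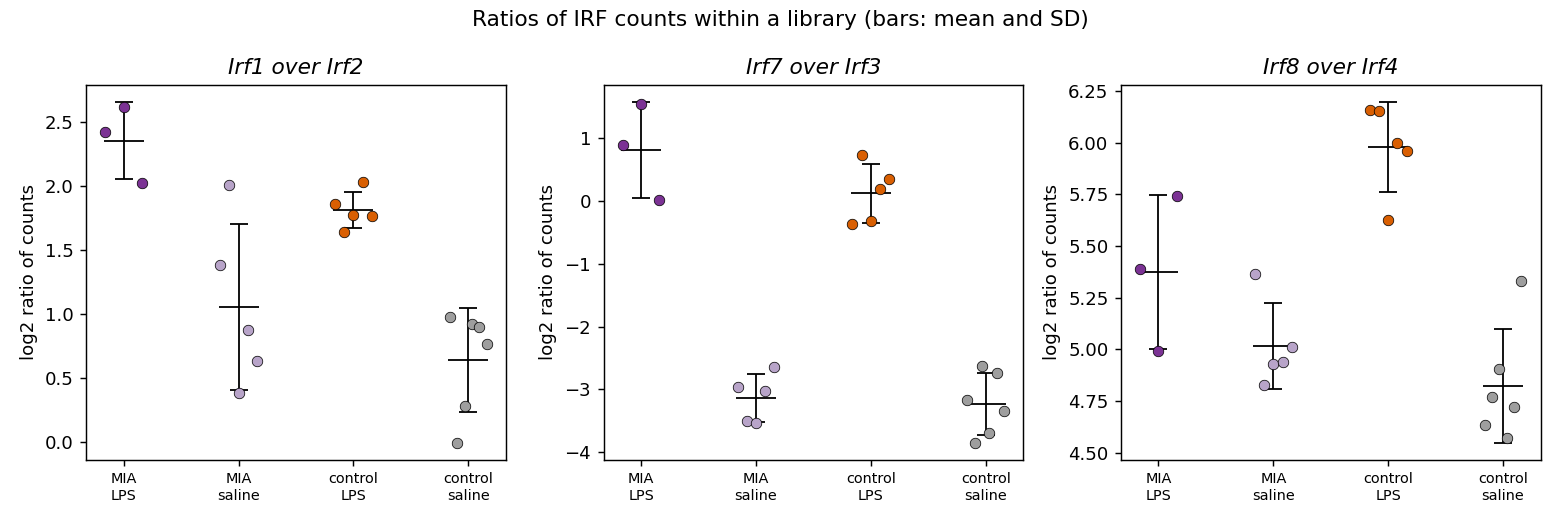
Log2 ratio of counts (y axes) of Irf1 over Irf2, Irf7 over Irf3 and Irf8 over Irf4 in each library (points) of the 4 groups (x axes), with mean and SD as bars; the axes do not start at 0. The median Irf7 to Irf3 count ratio is 1.86 in MIA LPS and 0.123 in MIA saline, and 1.14 in control LPS and 0.105 in control saline.

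Whether the LPS response of the members differed between MIA and control offspring was tested as an interaction. No member was called, and no gene among the 14741 was (0.0%) by edgeR; 491 genes had an unadjusted p under 0.05, and DESeq2 and limma-voom called 0 as well. Adjusted p was 1 for 8 of 8 members. Irf4 had the largest difference of responses, 0.64 ± 0.30 on the log2 scale (SE, 95% interval 0.03 to 1.26), MIA minus control, the log2 fold change lying nearer 0 in MIA. Irf7 differed by 0.34 (95% interval -0.52 to 1.21), Irf9 by 0.16 (-0.18 to 0.49) and Irf1 by -0.01 (-0.55 to 0.53). The other four differed by -0.23 (Irf3), -0.19 (Irf8), -0.12 (Irf2) and -0.12 (Irf5), each with an interval that spans 0. These intervals are wide, so a p that misses the threshold does not show that the responses were alike.

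MIA against control offspring after saline gave 0 called members and 0 called genes (0.0%) by edgeR, with 415 genes at an unadjusted p under 0.05, 6 calls by DESeq2 and 0 by limma-voom. Irf1 had the largest value, 90.5 ± 32.1 CPM in MIA saline (SD, n = 5) and 75.1 ± 14.4 CPM in control saline (n = 6), a log2 difference of 0.27 (95% interval -0.08 to 0.62, adjusted p = 1, edgeR). Without MIA saline replicate 2 it was 0.03. The remaining members differed by between -0.17 (Irf2) and 0.18 (Irf8). No member had groups that did not overlap, which 0.4% of all genes had.

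After LPS, MIA against control again gave 0 called members and 0 called genes (0.0%) by edgeR, with 825 genes at an unadjusted p under 0.05 and 0 calls by DESeq2 and limma-voom. Irf4 averaged 4.92 ± 1.0 CPM in MIA LPS (SD, n = 3) and 3.2 ± 0.428 CPM in control LPS (n = 5), a log2 difference of 0.62 ± 0.23 (SE, unadjusted p = 0.0142, adjusted p = 0.806, edgeR). It was higher than every control LPS library in 2 of 3 MIA LPS libraries, and the third was at 3.76 CPM against a control LPS highest of 3.77 CPM. Irf2 averaged 44.3 ± 2.3 CPM in MIA LPS and 54.3 ± 7.75 CPM in control LPS, a log2 difference of -0.30 ± 0.15 (adjusted p = 0.894); its 3 MIA LPS libraries lay below all 5 control LPS libraries, as 1.4% of all genes did (2.68% in either direction). Irf3 differed by -0.31 (95% interval -0.73 to 0.105), Irf7 by 0.30 (-0.28 to 0.89) and Irf1 by 0.26 (-0.15 to 0.67). Without MIA LPS replicate 2 the Irf3 difference was -0.06. The differences of Irf9 (0.11), Irf5 (-0.07) and Irf8 (-0.01) had intervals that span 0. The comparisons after LPS and after saline and the LPS contrasts share libraries, so their values are not independent of each other.

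The genes through which IRFs are known to act were described from lists drawn up by role. Counts of called genes in each list are to be read against the shares of all genes tested. These were 39.1% in MIA (20.8% higher, 18.3% lower) and 44.6% in control offspring (23.3% higher, 21.3% lower). Upstream, among 20 sensors, adaptors and kinases, 7 were called higher and 4 lower in each maternal group, with a median log2 fold change of 0.18 in MIA and 0.17 in control offspring. Ifih1, the cytosolic double-stranded RNA sensor MDA5, averaged 97.9 ± 25.2 CPM in MIA LPS and 27.2 ± 3.76 in MIA saline, and 80.7 ± 11.0 in control LPS and 27.6 ± 1.82 in control saline, log2 fold changes of 1.85 and 1.55. Sting1, the adaptor of cytosolic DNA sensing, fell by 1.69 in MIA and 1.20 in control offspring on the log2 scale, and Tlr9, the receptor for unmethylated DNA, by 0.53 and 0.82. Tbk1, a kinase of IRF3 and IRF7, rose by 0.60 in MIA and 0.46 in control offspring on that scale. Of 6 regulators of IRF activity or turnover, 1 was higher and 1 lower in MIA, and 2 were higher and 1 lower in control offspring. Irf2bp1, a co-repressor that binds IRF2, fell by 0.99 in MIA and 1.00 in control offspring, and Trim21, a ubiquitin ligase, rose by 0.71 and 0.64.

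DNA-binding partners mostly rose: 5 of 6 tested were called higher and 1 lower in each maternal group, with a median log2 fold change of 1.29 in MIA and 1.49 in control offspring. Stat2, which with IRF9 is part of the interferon-response complex, averaged 94.3 ± 34.6 CPM in MIA LPS and 15.3 ± 2.92 in MIA saline, and 75.4 ± 21.2 in control LPS and 13.9 ± 2.32 in control saline, log2 fold changes of 2.62 ± 0.22 (adjusted p = 1.34e-09) and 2.44 ± 0.19 (adjusted p = 2.13e-10). Batf2, a leucine zipper partner at low level, rose by 3.06 in MIA and 2.62 in control offspring on the log2 scale. The partner that fell was Batf3, by 1.70 in MIA and 1.46 in control offspring on the log2 scale. Interferons themselves were scarcely counted: Ifnb1 had a summed count of 9 over 3 MIA LPS, 6 over 5 MIA saline, 18 over 5 control LPS and 0 over 6 control saline libraries, and the other 7 interferon genes listed had 1 count in all groups together. Receptors, Janus kinases and their inhibitor Socs1 gave 0 calls of 8 tested in MIA and 1 of 8 in control offspring, the interferon gamma receptor chain Ifngr2, at 0.43 ± 0.12 on the log2 scale (adjusted p = 0.00719, edgeR).

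Genes known as targets of the IRF9 complex and of IRF7 rose in all but a few cases: 15 of 15 tested were called higher in MIA and 13 of 15 in control offspring, with median log2 fold changes of 2.65 and 3.19. The pair not called in control offspring was Ifit3 (1.19, adjusted p = 0.115) and Mx2 (0.28, adjusted p = 0.262), which in MIA had 2.07 (adjusted p = 0.0281) and 0.66 (adjusted p = 0.0273); the difference between the maternal groups was not called for either. Zbp1, a sensor of Z-form nucleic acid, averaged 32.9 ± 13.6 CPM in MIA LPS and 0.989 ± 0.56 in MIA saline, and 36.3 ± 4.53 in control LPS and 0.9 ± 0.883 in control saline. Oasl1 and Oasl2, relatives of the oligoadenylate synthases, had log2 fold changes of 4.78 and 4.57 in MIA and 5.62 and 4.57 in control offspring.

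Of 12 targets of IRF1, 9 were called higher and 1 lower in each maternal group, with median log2 fold changes of 1.20 in MIA and 1.34 in control offspring. Gbp2, a guanylate-binding protein, averaged 44.2 ± 3.69 CPM in MIA LPS and 1.59 ± 0.561 in MIA saline, and 51.5 ± 9.07 in control LPS and 1.92 ± 1.01 in control saline. Cd274, the checkpoint ligand PD-L1, rose by 3.49 in MIA and 3.62 in control offspring, and Nlrc5, the activator of MHC class I genes, by 3.39 and 3.51. The exception was Il15, a cytokine that sustains natural killer cells, which fell by 2.24 in MIA and 1.64 in control offspring on the log2 scale.

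All 5 tested inflammatory genes linked to IRF5 were called higher in each maternal group, although Irf5 itself was called lower. Tnf averaged 613.8 ± 189.4 CPM in MIA LPS and 37.4 ± 9.9 in MIA saline, and 484.0 ± 157.3 in control LPS and 35.8 ± 14.4 in control saline. Il6 rose by 3.00 in MIA and 2.54 in control offspring on the log2 scale, which was the median of the list in either. Il12b had a summed count of 176 over 3 MIA LPS and 0 over 5 MIA saline libraries. Its MIA LPS level was 4.06 ± 4.77 CPM, with an SD above the mean. With the saline sum set to 3 counts, that mean is at least 89.5-fold higher, which need not hold for each MIA LPS library. In control offspring the summed count of Il12b was 482 over 5 LPS against 2 over 6 saline libraries.

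Genes linked to IRF8 in microglia went both ways, 4 of 8 called higher and 3 lower in each maternal group. Il1b averaged 265.0 ± 169.5 CPM in MIA LPS and 14.3 ± 2.78 in MIA saline, and 238.2 ± 103.4 in control LPS and 16.5 ± 6.93 in control saline. P2ry12, whose protein was the sorting marker, fell by 3.33 in MIA and 3.39 in control offspring on the log2 scale, and Tlr2, a receptor for bacterial lipoproteins, rose by 3.05 and 3.24. Of 6 tested genes linked to IRF4 and alternative activation, 3 were called higher and 1 lower in each maternal group. Arg1, arginase, averaged 11.5 ± 9.42 CPM in MIA LPS and 0.502 ± 0.304 in MIA saline, and 11.9 ± 4.87 in control LPS and 0.375 ± 0.457 in control saline. Mrc1, the mannose receptor, fell by 1.75 in MIA and 2.08 in control offspring. Chil3, a chitinase-like protein, was called higher in each, with a summed count of 234 in MIA LPS and 0 in MIA saline, and 439 in control LPS and 36 in control saline. Chil3 is also on the list of monocyte markers and Mrc1 on that of border-associated macrophage markers, which summed to 11.9 to 35.3 CPM in MIA LPS, with Lyve1 at 0, to 14.4 to 34.9 CPM in MIA saline, 16.9 to 47.1 CPM in control LPS and 20.8 to 58.7 CPM in control saline; the part of such cells was not tested. Across the 9 lists, 0 genes were called in the interaction or in either comparison of MIA with control, as among all genes.

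**Figure D5:**
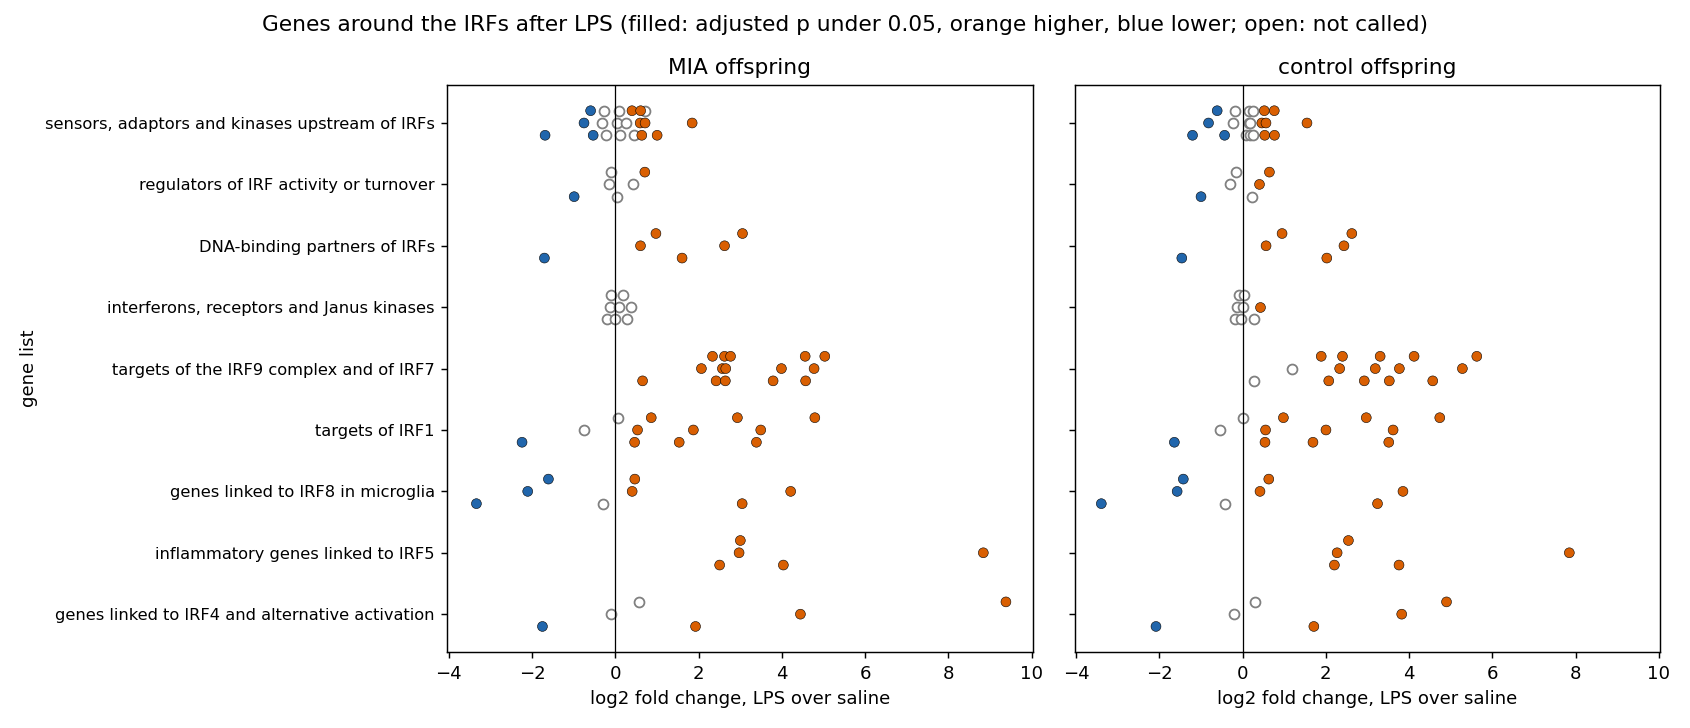
Log2 fold change of LPS over saline (x axes) for each tested gene of the 9 lists (y axis) in MIA offspring (left) and control offspring (right). Of the targets of the IRF9 complex and of IRF7, 15 of 15 are called higher in MIA and 13 of 15 in control offspring; the fitted values of Il12b and Chil3 in MIA rest on saline groups with 0 counts and are no measure of their fold.

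Genes whose pattern across the 19 libraries lay nearest to each member were found by the root mean square difference in log2 CPM, each gene centred on its control saline mean, among 6978 genes whose mean log2 CPM was 3 or more. Nearest to Irf7 were Rtp4 (0.34) and Pfkfb3 (0.43), to Irf1 Cndp2 (0.23) and Zc3h12a (0.25), and to Irf9 Ppp1r15b and Fcgr2b (both 0.16). Irf4 lay nearest to Sord (0.20) and Gnas (0.21), and Reep5 lay near Irf5 (0.12). For Irf8 the nearest were Ctns (0.14) and Usp12 (0.16), for Irf2 Sh2b3 (0.16) and Rassf2 (0.17), and for Irf3 Pomt2 (0.15) and Vipas39 (0.16). Among the members, Irf5 and Irf8 were the closest pair (0.24), Irf1 and Irf9 differed by 0.39, and Irf4 and Irf7 were the farthest apart (2.99). A small distance says that the genes lie at similar heights relative to control saline, which also holds for genes that change little. It does not say that they vary together within a group or share control. Irf2 and Irf3 differed by 0.32, yet their deviations from group means correlated at -0.04, against 0.62 for Irf1 and Irf9. The highest such correlation was 0.75, for Irf1 and Irf4, which differed by 1.60 and changed in opposite directions with LPS.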

How the data were processed

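From 5 ng of RNA per library, cDNA was primed at poly(A) tails and amplified in 9 PCR cycles (Smart-Seq2, modified), per the labels' protocols. What the authors deposited are unnormalized estimated counts of 55487 genes in 21 libraries; 6.27% of values were not whole and all were rounded. The submitters' processing notes name RSEM, STAR and DESeq2; build and strand setting are not given in the sources used. Symbols came from GENCODE M21, which held 55141 identifiers and lacked 346. Replicates differed beyond sampling noise (lowest chi-square per degree of freedom 9.58).

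The test was edgeR 4.0.16 (R 4.3.3), quasi-likelihood, robust, TMM, 1 mean per group plus batch, on 20 libraries with 15 residual degrees of freedom. The filter (minimum count 10, minimum total 15) left 14741 genes and 99.9% of counts; the common biological coefficient of variation was 0.252. A standard error is the absolute log2 fold change over the square root of F. CPM are TMM-scaled over the 20 libraries of the fit, group means use batch 1 libraries, and intervals cover 95%. The CPM of the library titled excluded were scaled over all 21 libraries. Alternatives were RLE and upper quartile scaling, no filter, DESeq2 1.42.0, limma-voom 3.58.1, batch, the excluded library, ribosomal RNA genes, blocks on replicate or ID number, and leaving out each library; transcript length was varied as a choice made after seeing the data.

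Named genes were the 8 members, up to 3 called genes per list with the largest change in control offspring, and the 2 nearest genes per member. Outside this rule, Tbk1, Batf3, Ifnb1, Ifit3, Mx2 and Il15 were named after their values were seen. Members and lists were chosen with earlier results of these data known. Some genes this rule names are not reported here. Libraries with the same replicate number did not deviate together, so replicate numbers were not taken as pairs. Libraries also carried an ID number of unstated meaning, and those in the MIA means carried 3, 9 or 11. Pairs from different groups with the same ID number correlated at a median of 0.04 (10 pairs), against -0.008 for other pairs. Whether shared ID numbers make libraries dependent cannot be told from the labels.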

Additional observations from a re-analysis of the deposited data

Results flagged for a closer look

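Irf3 in control LPS replicate 1, at 21.4 CPM, stood apart from the other control LPS libraries, the next of which had 17.8 CPM. Irf9 in control saline replicate 3, at 28.8 CPM, stood apart from the other control saline libraries, the next of which had 25.8 CPM. Among the 24 sets of a member and a group that were examined, chance sets apart about 1 in 20. MIA LPS, with 3 libraries, was too small for this check and was not examined.

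The MIA LPS library of batch 2 entered no group mean. Its levels exceeded the highest MIA saline library for Irf7 (55.5 CPM, against a MIA saline highest of 2.6 CPM), Irf9 (42.7 against 29.3 CPM), Irf5 (90.8 against 79.6 CPM) and Irf8 (284.1 against 278.6 CPM). For Irf5 (called lower) and Irf8 (not called), the LPS change fitted on the batch 1 libraries of MIA offspring was in the other direction. In the batch 2 library Irf1 was at 71.9 CPM, within the MIA saline range and below the 3 MIA LPS libraries of batch 1. Irf4 was at 5.64 CPM in it, below the lowest MIA saline library (6.6 CPM). This library had summed neutrophil markers of 377.4 CPM, against at most 110.6 CPM in the LPS libraries of batch 1, and summed monocyte markers of 118.2 CPM, against at most 79.6 CPM. It had a count for 12285 genes, against at least 16854 in each other library, and ribosomal RNA took 61.5% of its counts. The part of these values in its IRF levels was not tested. Batch and library cannot be told apart here, since this library is alone in its batch. The MIA saline library titled excluded had 0.959 CPM of Irf7, 83.8 CPM of Irf1, 24.1 CPM of Irf9 and 247.5 CPM of Irf8.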

How the results depend on the processing

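Irf1, Irf7 and Irf9 in both maternal groups, and Irf4 in control offspring, kept their call and direction in 29 of 29 alternatives. The calls of Irf5 in both groups and of Irf4 in MIA offspring were lost under the settings given with their values and, for Irf4, also under both blocks given here. Called genes over the libraries left out 1 at a time ran from 5927 to 7076 in control and from 4814 to 5879 in MIA offspring for LPS against saline, from 0 to 2 for the interaction (2 without MIA LPS replicate 1, 1 without control saline replicate 4), and from 0 to 4 for MIA against control after LPS (4 without MIA LPS replicate 1, 3 without MIA LPS replicate 3). DESeq2 called 6 genes for MIA against control after saline; the cause was not tested. Without MIA LPS replicate 2, Irf3 had 0.21 for LPS in MIA offspring and -0.06 for MIA against control after LPS, and Irf5 had 0.07 in that last comparison, against -0.21 without replicate 1. Replicate numbers did not pair the libraries (same-numbered pairs correlated at a median of 0.03, from -0.14 to 0.22, with 5 of 24 above 0.1). With the replicate number as a block, 5540 genes and 4 members were called in MIA and 6295 genes and 5 members in control offspring, and 0 in the other comparisons; Irf4 in MIA had -0.55 (adjusted p = 0.0767). With the ID number as a block it had -0.58 (adjusted p = 0.0716). With all exons as length, 22 of 32 shares of the IRF sum moved by more than 1 SD and 10 did not. Irf4 and, after saline, Irf7 rest on low counts, and the part of counting error in their spread was not tested.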
